A study of Mus musculus with 12 samples.

Results

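RANKL, OPG, RANK and the ligands of CSF1R are encoded in mice by Tnfsf11, Tnfrsf11b, Tnfrsf11a, Csf1 and Il34. These 5 genes of the 21965 in the count table were chosen by name for their place in osteoclast formation, and all 5 were found in the table and passed the filter on low counts. They were followed in gingival tissue of 12 mice, with 3 libraries in each of 4 groups. WT naive mice were C57BL/6 without a ligature, and WT ligated mice were C57BL/6 whose maxillary molar carried a silk ligature for 8 days. CybbKO naive and CybbKO ligated mice were labelled Cybb-/- and were left unligated or ligated in the same way. Cybb encodes the catalytic subunit of Nox2, the NADPH oxidase of phagocytes. All mice were under 12 weeks of age, and the deletion was carried in every cell of the CybbKO mice rather than in one cell type. The methods state that mice of both sexes were used, and the labels do not give the sex of each mouse. Per the methods, the WT mice were C57BL/6J animals bought from the Jackson Laboratory and the CybbKO mice came from another laboratory, so genotype and colony of origin cannot be told apart. The strain background of the CybbKO mice is not given in the sources used here.

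Osteoclasts are the cells that resorb bone, and they form from precursors of the monocyte and macrophage lineage. RANKL on or shed from osteoblasts, osteocytes, fibroblasts and T cells binds RANK on these precursors, and OPG is a soluble decoy receptor that occupies RANKL before RANK can. CSF1 and IL-34 both bind CSF1R and keep the precursors alive. In periodontitis, where bacteria gather around a tooth, the balance of RANKL and OPG is widely used as a reading of the pull toward loss of alveolar bone. All of the values here are RNA levels, and shedding, decoy binding and receptor occupancy act on the proteins.

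Tnfsf11 (ENSMUSG00000022015) lies on the minus strand of GRCm38 at chr14:78277445-78308043. Tnfrsf11b (ENSMUSG00000063727) lies on the minus strand at chr15:54250619-54278484. Tnfrsf11a (ENSMUSG00000026321) lies on the plus strand at chr1:105780718-105847981. Csf1 (ENSMUSG00000014599) lies on the minus strand at chr3:107741048-107760469. Il34 (ENSMUSG00000031750) lies on the minus strand at chr8:110741829-110805924, where the annotated antisense genes Gm15894 and Gm15895 overlap it on the other strand. The methods state a count by strand, but the sources name different counting tools, so reads of these antisense genes may be included in Il34.

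Tnfsf11, Tnfrsf11a and Csf1 were the 3 members called after ligature in CybbKO tissue, and their promoters could be matched in the RefSeq promoter sequences of GRCm38.p6. For Tnfrsf11b and Il34 no entry was matched. The bases just before the annotated start of each gene are printed in the direction of transcription, since they show how unlike the start regions of the 3 genes are. Capitals mark matches on either strand to TATAA, the core of a TATA box, and to GGGCGG, the GC box bound by Sp1 family factors. TGANTCA, an AP-1 site, was also searched, is held by 6.75% of promoters and had no match in these windows.

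Tnfsf11, chr14:78308044-78308293, minus strand: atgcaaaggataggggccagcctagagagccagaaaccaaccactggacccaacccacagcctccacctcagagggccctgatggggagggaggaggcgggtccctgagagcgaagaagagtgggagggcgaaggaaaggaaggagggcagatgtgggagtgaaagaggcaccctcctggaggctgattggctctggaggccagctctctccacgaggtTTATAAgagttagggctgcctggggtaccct
Tnfrsf11a, chr1:105780473-105780717, plus strand: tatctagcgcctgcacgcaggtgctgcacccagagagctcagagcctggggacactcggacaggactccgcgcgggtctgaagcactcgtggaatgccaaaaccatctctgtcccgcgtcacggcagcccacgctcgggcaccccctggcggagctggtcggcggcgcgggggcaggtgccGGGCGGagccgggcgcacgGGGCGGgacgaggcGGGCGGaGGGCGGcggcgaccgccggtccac
Csf1, chr3:107760470-107760719, minus strand: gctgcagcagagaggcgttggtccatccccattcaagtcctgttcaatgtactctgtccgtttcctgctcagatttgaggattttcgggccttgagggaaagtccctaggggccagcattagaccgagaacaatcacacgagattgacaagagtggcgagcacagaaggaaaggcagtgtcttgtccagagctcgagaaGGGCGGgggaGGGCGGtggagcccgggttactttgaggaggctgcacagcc

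The Tnfsf11 window held TATAA on the coding strand, 30 to 26 bases before the start, which overlaps the reverse match TTATA. Neither of the other windows held TATAA, and 22.8% of the 32851 mouse promoters searched did. The Tnfrsf11a window held 4 GC boxes between 64 and 19 bases before the start, and its GC content was 73.9%. The Csf1 window held 2 GC boxes between 51 and 36 bases before the start, and the Tnfsf11 window held none. GC boxes occurred in 32.7% of all promoters. The median GC content of all promoters was 52.4%, against 60.4% for Tnfsf11 and 56.4% for Csf1. These are matches of letters, and no binding or chromatin was measured.

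Per library, 27958819 to 42613423 reads were counted on genes, and edgeR's TMM factors ran from 0.918 to 1.08. Cybb, the gene named in the genotype label, stood at 5.06 ± 0.758 CPM (TMM-scaled counts per 1e6 counted reads, SD, n = 3) in WT naive and 47.9 ± 7.56 CPM in CybbKO naive libraries. In ligated tissue it stood at 12.1 ± 3.43 CPM in WT and 57.0 ± 6.31 CPM in CybbKO libraries, so a count over the whole gene was higher in every library labelled CybbKO and cannot show the disrupted part. The genotype is therefore taken from the labels throughout. Keratin 76, a keratin of oral mucosa, and the other epithelial markers were abundant in all libraries, with summed levels of 60524 to 125370 CPM over 11 genes. CybbKO ligated replicate 2 stood apart from the other 2 libraries of its group, with a mean distance of 0.659 (root mean square log2 difference over the tested genes), where the other 5 ligated libraries lay between 0.481 and 0.549. WT naive replicate 3 had the largest such distance, 0.782, followed by WT naive replicate 1 at 0.713. The summed salivary gland markers reached 29294 CPM in WT naive replicate 3, against 64.5 CPM in WT naive replicate 1. The comparisons of the 5 genes and of their ratios were repeated without each library in turn. The counts of the gene lists were repeated only without CybbKO ligated replicate 2 and without WT naive replicate 3. As all libraries are of bulk tissue, fewer cells of a type and less RNA per cell cannot be told apart. The p-values measure the spread between these mice, 3 per group.

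Naive gingiva held little Tnfsf11 and much more Il34 and Tnfrsf11b. On the scale of mean CPM per kilobase of exon, which allows levels of different genes to be compared, the order in WT naive tissue was Il34 at 7.87 ± 0.555, Tnfrsf11b at 4.23 ± 0.506, Csf1 at 2.54 ± 0.507, Tnfrsf11a at 0.694 ± 0.466 and Tnfsf11 at 0.159 ± 0.0535. CybbKO naive tissue had the same order, with Il34 at 8.70 ± 1.83, Tnfrsf11b at 4.99 ± 0.248, Csf1 at 2.25 ± 0.708, Tnfrsf11a at 0.445 ± 0.109 and Tnfsf11 at 0.148 ± 0.0472. In both naive groups no library of one gene overlapped the libraries of the gene next to it in this order.

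Ligated tissue had another order. In WT ligated tissue Tnfrsf11b led at 10.2 ± 6.62 CPM per kilobase, followed by Il34 at 6.30 ± 0.465, Csf1 at 3.51 ± 0.758, Tnfrsf11a at 1.00 ± 0.378 and Tnfsf11 at 0.936 ± 1.03. Its Tnfrsf11b libraries overlapped those of Il34 and of Csf1, and Tnfsf11 overlapped Tnfrsf11a. In CybbKO ligated tissue Tnfrsf11b stood at 11.7 ± 1.65, Il34 at 7.79 ± 0.0781, Csf1 at 5.14 ± 0.560, Tnfsf11 at 2.76 ± 2.28 and Tnfrsf11a at 1.45 ± 0.395 CPM per kilobase. There the first 3 genes were separate, and Tnfsf11 and Tnfrsf11a overlapped.

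**Figure D1:**
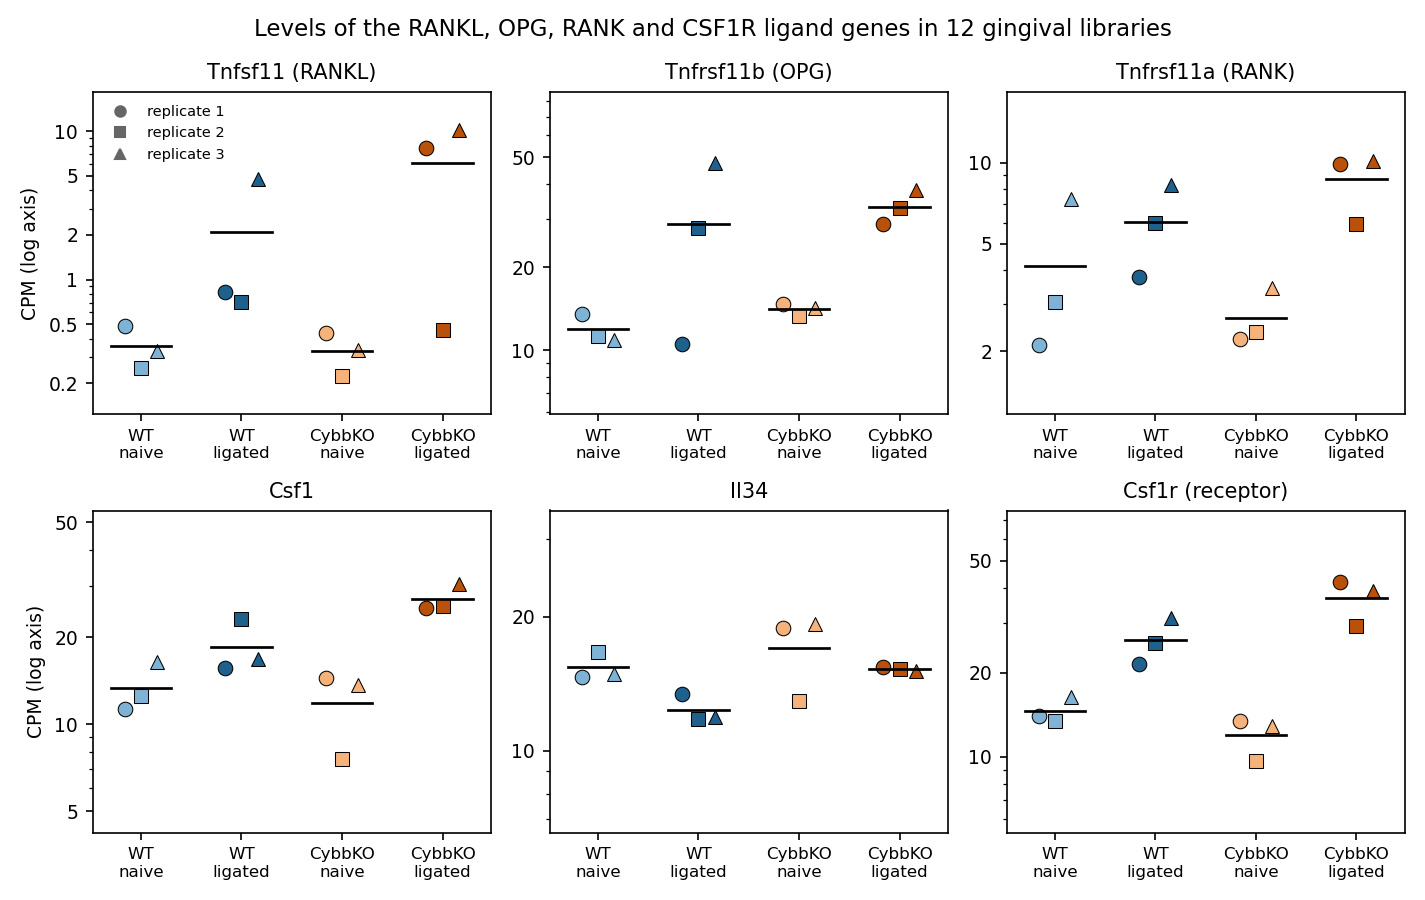
CPM of the 5 genes and of the receptor gene Csf1r in each of the 12 libraries, on log axes with a scale for each gene; symbols give the replicate number and black bars the mean of the 3 libraries. CybbKO ligated replicate 2 has 0.455 CPM of Tnfsf11, near the naive libraries, while its Csf1 level of 25.6 CPM lies with the other CybbKO ligated libraries.

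Ligature and naive tissue were compared to ask how the osteoclast ligands and receptors stand after 8 days of ligature. Averaged over both genotypes, 4 of the 5 genes were called higher in ligated tissue at an adjusted p under 0.05 in edgeR's quasi-likelihood test, namely Tnfsf11, Tnfrsf11b, Tnfrsf11a and Csf1, and Il34 was not called. In the same contrast 24.4% of the 15046 genes tested were called, and 14.7% of the 15046 were called higher, so a call for ligature was common in this tissue. The split was 2215 higher and 1453 lower genes, and 2628 and 726 when libraries were scaled by their totals alone, which moved the median of all genes from -0.0311 to 0.0651 on the log2 scale. Within WT tissue none of the 5 genes was called, where 3.2% of all genes were, as 348 higher and 133 lower genes (477 and 68 with scaling by totals alone, where the median moved from -0.0260 to 0.0828). Within CybbKO tissue 3 of the 5 were called, all higher, where 13% of all genes were called and 9.95% as higher.

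Tnfsf11, the ligand that drives osteoclast formation, had the largest fold of the 5 genes and the widest spread. WT naive replicates 1 to 3 held 0.487, 0.253 and 0.328 CPM, and CybbKO naive replicates 1 to 3 held 0.433, 0.222 and 0.336 CPM, which rest on 8 to 16 counts a library. WT ligated replicates 1 to 3 held 0.821, 0.707 and 4.75 CPM from 33, 27 and 183 counts. CybbKO ligated replicates 1 to 3 held 7.78, 0.455 and 10.2 CPM from 298, 17 and 449 counts. Thus 3 ligated libraries were high, 1 WT and 2 CybbKO, and the other 3 were within 1 CPM of the naive ones. Within WT every ligated library exceeded every naive one, as in 13.3% of all genes, and within CybbKO the same held, as in 18.5% of all genes. Over the 12 libraries the groups overlapped, because the lowest ligated library, CybbKO replicate 2, lay below WT naive replicate 1.

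The fitted log2 fold change of Tnfsf11 was 2.54 ± 1.02 (SE; adjusted p = 0.190, edgeR) in WT and 4.21 ± 1.04 (adjusted p = 0.0215) in CybbKO tissue. Averaged over the genotypes it was 3.37 ± 0.726 (adjusted p = 0.00652), a fold of 10.4, and an exact two-sided permutation test of the log2 CPM within genotypes gave p = 0.005, the smallest that its 400 arrangements allow. The mean difference of log2 CPM in that test corresponded to a fold of 6.52. DESeq2 also called the WT contrast, with an adjusted p of 0.0410. The CybbKO call was lost when CybbKO ligated replicate 1 (log2 fold change 4.01, adjusted p = 0.0640), CybbKO ligated replicate 3 (3.63, 0.0727), or CybbKO naive replicate 1 (4.46, 0.0619), 2 (3.99, 0.0808) or 3 (4.22, 0.0745) was left out. Without CybbKO ligated replicate 2 it was 4.76 with an adjusted p of 0.00183. Without WT ligated replicate 3 the WT value fell to 1.09, and the averaged value to 2.65 with an adjusted p of 0.0169. The averaged call held with any single library left out.

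Tnfrsf11b, which encodes OPG, was also higher after ligature. WT naive replicates held 13.6, 11.3 and 10.9 CPM, and CybbKO naive replicates held 14.7, 13.3 and 14.2 CPM. WT ligated replicates held 10.6, 27.6 and 47.8 CPM, and CybbKO ligated replicates held 28.6, 32.7 and 37.9 CPM. All 3 CybbKO ligated libraries exceeded every naive library, while WT ligated replicate 1 lay below all of them. The log2 fold change was 1.27 ± 0.384 (adjusted p = 0.0923, edgeR) in WT and 1.23 ± 0.382 (adjusted p = 0.0547) in CybbKO, and 1.25 ± 0.271 (adjusted p = 0.00691) averaged over both. The stratified exact permutation p was 0.02. DESeq2 called it within each genotype, with adjusted p-values of 0.0165 and 0.0113. Without WT ligated replicate 1 the WT value rose to 1.70 (adjusted p = 0.0134) and the CybbKO contrast was called (1.25, 0.00493), and without WT ligated replicate 3 the WT value was 0.68 and the CybbKO contrast was called (1.23, 0.0189).

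Tnfrsf11a, which encodes RANK, the receptor of RANKL on osteoclast precursors, was low in all groups. WT naive replicates held 2.10, 3.04 and 7.33 CPM and WT ligated replicates 3.76, 5.97 and 8.28 CPM, so the groups overlapped. CybbKO naive replicates held 2.22, 2.36 and 3.42 CPM and CybbKO ligated replicates 9.90, 5.94 and 10.2 CPM, without overlap. The log2 fold change was 0.53 ± 0.437 (adjusted p = 0.537, edgeR) in WT, 1.70 ± 0.448 (adjusted p = 0.0285) in CybbKO and 1.12 ± 0.312 (adjusted p = 0.0227) averaged over both, with an exact stratified permutation p of 0.02. WT naive replicate 3 was the high naive library, and without it the WT value was 1.22 and the averaged value 1.46, while without WT naive replicate 1 they were 0.21 and 0.96. The WT value was 0.23 without WT ligated replicate 3, 0.35 without WT naive replicate 2 and 0.82 without WT ligated replicate 1. The CybbKO call was lost without CybbKO ligated replicate 1 (1.59, adjusted p = 0.0941), CybbKO ligated replicate 3 (1.57, 0.0943), or CybbKO naive replicate 1 (1.59, 0.0969), 2 (1.62, 0.0915) or 3 (1.92, 0.0539). The averaged call was lost without WT ligated replicate 3 (0.97, adjusted p = 0.0602), CybbKO ligated replicate 1 (1.06, 0.0544) or 3 (1.05, 0.0541), WT naive replicate 2 (1.03, 0.0589) or CybbKO naive replicate 1 (1.06, 0.0539).

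Csf1, the broadly expressed ligand of CSF1R, changed by a smaller fold, and its CybbKO ligated libraries lay close together. WT naive replicates held 11.3, 12.5 and 16.4 CPM and WT ligated replicates 15.6, 23.1 and 16.9 CPM, which overlapped. CybbKO naive replicates held 14.4, 7.57 and 13.6 CPM and CybbKO ligated replicates 25.3, 25.6 and 30.6 CPM, which did not overlap. In contrast to Tnfsf11, CybbKO ligated replicate 2 was at the level of its group. The log2 fold change was 0.47 ± 0.246 (adjusted p = 0.313, edgeR) in WT, 1.19 ± 0.248 (adjusted p = 0.00989) in CybbKO and 0.83 ± 0.174 (adjusted p = 0.00586) averaged over both, a fold of 1.78 with an exact stratified permutation p of 0.01. The CybbKO and averaged calls held with any single library left out.

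Il34, which in skin and oral epithelium is the ligand that maintains Langerhans cells, had lower means after ligature and was not called. WT naive replicates held 14.7, 16.7 and 14.9 CPM and WT ligated replicates 13.4, 11.7 and 11.9 CPM, so each ligated library was below each naive one, as in 11.6% of all genes. CybbKO naive replicates held 18.9, 12.9 and 19.3 CPM and CybbKO ligated replicates 15.4, 15.2 and 15.1 CPM, with naive replicate 2 below the ligated ones. The log2 fold change of -0.32 ± 0.161 in WT had an adjusted p of 0.292 (edgeR), that of -0.16 ± 0.160 in CybbKO an adjusted p of 0.561, and the averaged value of -0.24 ± 0.113 an adjusted p of 0.147. The exact stratified permutation p for Il34 was 0.05. Without CybbKO naive replicate 2 the averaged value was -0.32 with an adjusted p of 0.0265.

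**Figure D2:**
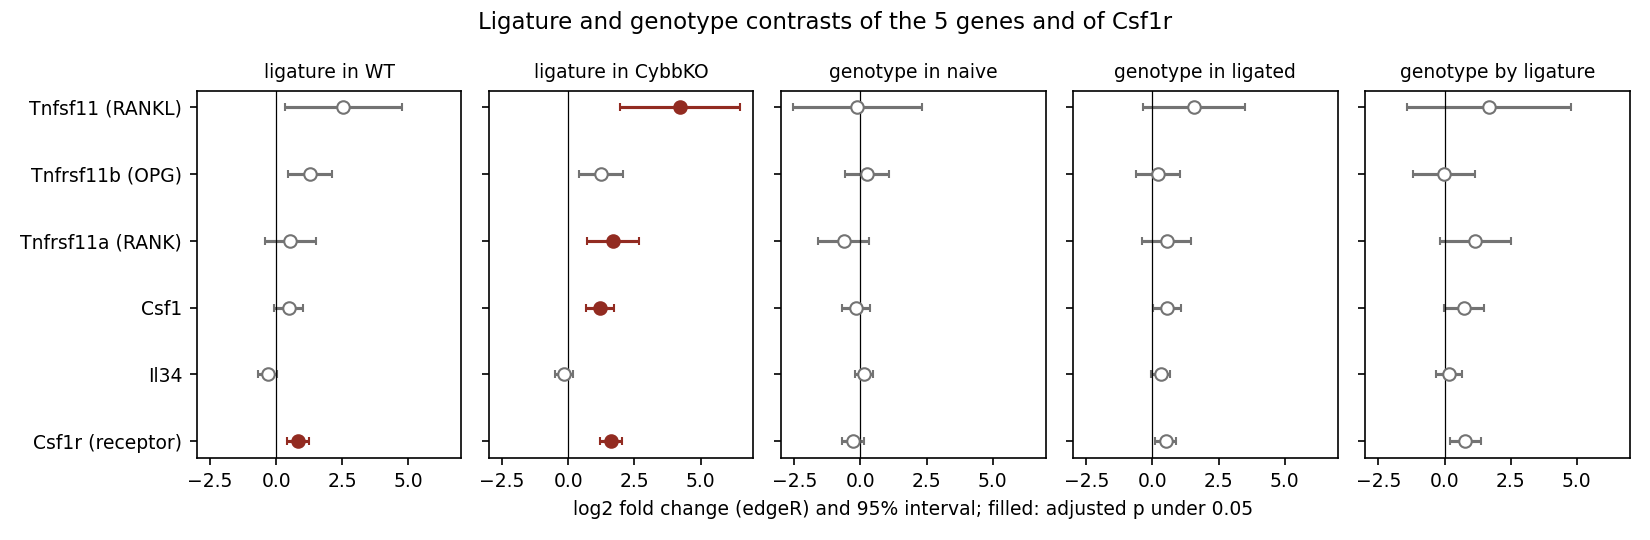
Log2 fold changes with 95% intervals from edgeR's joint fit for the 5 genes and Csf1r, in 5 contrasts on one scale; filled points passed an adjusted p of 0.05. Tnfsf11 has the widest intervals, from 1.94 to 6.49 for ligature in CybbKO, and no point is filled in the 3 panels that involve genotype differences.

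The ratio of Tnfsf11 to Tnfrsf11b was formed within each library from counts per kilobase of exon, which removes sequencing depth and library scaling. WT naive replicates 1 to 3 had ratios of 0.0453, 0.0283 and 0.0378, and CybbKO naive replicates 0.0371, 0.0210 and 0.0297. WT ligated replicates had 0.0979, 0.0322 and 0.125, and CybbKO ligated replicates 0.343, 0.0175 and 0.341. OPG transcripts therefore outnumbered RANKL transcripts in every library. The narrowest excess was 2.92-fold, in CybbKO ligated replicate 1, and the widest was 57.1-fold, in CybbKO ligated replicate 2. Counting alone set a 95% interval (exact Clopper-Pearson) of 0.300 to 0.390 on the first of these and of 0.0102 to 0.0281 on the second. Thus CybbKO ligated tissue held both the highest and the lowest ratios of the 12 libraries, and counting error does not span that distance.

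Both ligated groups overlapped their naive groups in the ratio. The geometric mean was 0.0365 in WT naive, 0.0733 in WT ligated, 0.0285 in CybbKO naive and 0.127 in CybbKO ligated tissue. The mean log2 difference for ligature was 1.01 ± 0.634 (SE) in WT (exact two-sided permutation p = 0.3) and 2.15 ± 1.45 in CybbKO (p = 0.4 by the same permutation test), where 0.1 is the smallest p that 3 against 3 allows. Leaving out WT ligated replicate 3 gave a WT value of 0.62, and leaving out replicate 2 of the same group gave 1.60. The CybbKO value was 1.44 without CybbKO ligated replicate 1 or 3 and 3.58 without CybbKO ligated replicate 2. Averaged over the genotypes the difference was 1.58, with an exact stratified permutation p of 0.08. Without CybbKO ligated replicate 2 it was 2.30 (exact permutation p = 0.015), and without WT ligated replicate 2, whose ratio lay within the naive range, it was 1.88 (exact permutation p = 0.04). CybbKO ligated replicate 2 combined a Tnfrsf11b level above all naive libraries with a Tnfsf11 level in the naive range. WT ligated replicate 1 had a ratio above the naive range with the lowest Tnfrsf11b of all libraries and a Tnfsf11 level of 0.821 CPM.

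Il34 and Csf1 share a receptor, and their ratio per kilobase separated the ligated from the naive libraries. WT naive replicates 1 to 3 had Il34 to Csf1 ratios of 3.51, 3.59 and 2.45, and CybbKO naive replicates 3.54, 4.59 and 3.82. WT ligated replicates had 2.31, 1.37 and 1.90, and CybbKO ligated replicates 1.65, 1.61 and 1.33. Every ligated library lay below every naive one, although WT ligated replicate 1 and WT naive replicate 3 were close and their counting intervals overlapped. Single genes separated the 6 ligated from the 6 naive libraries upward in 6.73% and downward in 4.31% of the genes tested, and none of the 5 genes did so on its own. These shares hold for single genes, and the share of gene ratios that separate the libraries was not computed. The mean log2 difference was -0.79 ± 0.283 in WT and -1.38 ± 0.147 in CybbKO tissue, each with an exact permutation p of 0.1, the smallest possible. Averaged over both it was -1.08, a ratio 0.472 times the naive one, with an exact stratified permutation p of 0.005, again the smallest possible, and 0.01 after adjustment over the 2 ratios. CybbKO ligated replicate 2 did not stand apart in this ratio.

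**Figure D3:**
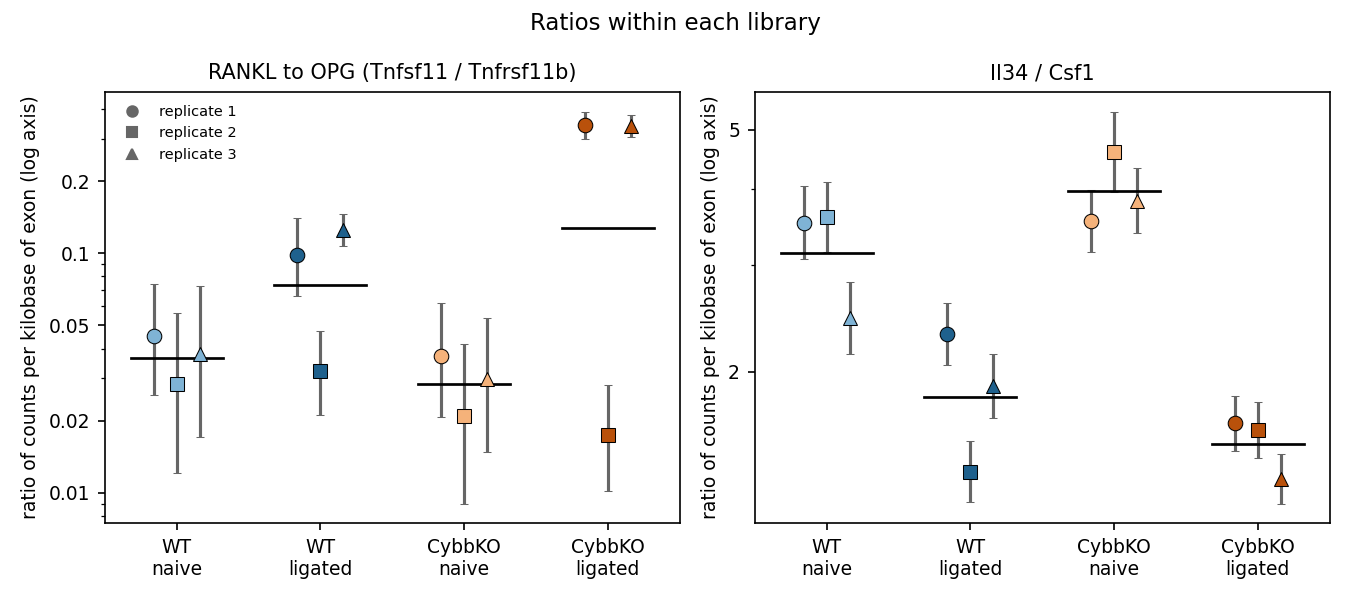
Ratios of Tnfsf11 to Tnfrsf11b and of Il34 to Csf1 in each library, as counts per kilobase of exon on log axes; error bars are 95% Clopper-Pearson intervals that cover counting error only, and black bars are geometric means. The RANKL to OPG ratio of CybbKO ligated libraries spans 0.0175 to 0.343, while the Il34 to Csf1 ratios of all ligated libraries stay at or below 2.31.

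CybbKO and WT tissue were compared to ask whether the loss of Cybb moved these genes before or after ligature. None of the 5 genes was called for genotype, in naive or in ligated tissue, and 1 of 15046 genes, Cybb itself, or 0.00665%, was called in each of these contrasts by edgeR, against 2 in naive and 18 in ligated tissue by DESeq2. In naive tissue the log2 differences of CybbKO over WT were -0.12 for Tnfsf11, 0.24 for Tnfrsf11b, -0.64 for Tnfrsf11a, -0.17 for Csf1 and 0.14 for Il34, all with adjusted p-values of 1 (edgeR). The 95% intervals ran from -2.56 to 2.33 for Tnfsf11, from -0.59 to 1.07 for Tnfrsf11b, from -1.61 to 0.34 for Tnfrsf11a, from -0.71 to 0.36 for Csf1 and from -0.21 to 0.49 for Il34. The naive CybbKO and WT libraries overlapped for all 5 genes, and over all genes 2.08% were separate with CybbKO higher and 3.03% with CybbKO lower.

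In ligated tissue every one of the 5 genes had a higher mean in CybbKO than in WT, and none passed the test. Csf1 was higher in each CybbKO library than in each WT library, with a log2 difference of 0.55 ± 0.244 (95% interval 0.02 to 1.08; unadjusted p = 0.0442, adjusted p = 1.00, edgeR). Il34 was likewise higher in each CybbKO library, by 0.31 ± 0.160 (interval -0.04 to 0.66; unadjusted p = 0.0802 and adjusted p = 1.00, edgeR), and 5% of all genes showed such separation in this direction. For both genes the exact permutation p was 0.1, the smallest possible with 3 against 3. Tnfsf11 differed by 1.56 ± 0.886 (interval -0.38 to 3.49), Tnfrsf11a by 0.53 ± 0.431 (interval -0.41 to 1.47) and Tnfrsf11b by 0.21 ± 0.375 (interval -0.61 to 1.02), each with an adjusted p of 1.00 (edgeR). The Tnfsf11 value rested on single libraries, since it was 3.01 once WT ligated replicate 3 was left out, 2.11 in the absence of CybbKO ligated replicate 2 and 0.98 in that of CybbKO ligated replicate 3. For Tnfrsf11b the sign turned, to -0.21, without WT ligated replicate 1, and the value was 0.79 without WT ligated replicate 3.

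The RANKL to OPG ratio differed between CybbKO and WT by a log2 difference of -0.35 ± 0.310 in naive tissue (exact permutation p = 0.4) and of 0.79 ± 1.55 in ligated tissue (exact permutation p = 0.6). Without CybbKO ligated replicate 1 the ligated difference was 0.07, and without CybbKO ligated replicate 2 it was 2.22. The Il34 to Csf1 ratio differed by 0.34 ± 0.210 in naive (exact permutation p = 0.2) and by -0.26 ± 0.239 in ligated tissue (exact permutation p = 0.4).

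Whether ligature acted differently in the genotypes was tested as the difference between the 2 ligature effects. None of the 5 genes was called, and neither was any of the 15046 genes (0% by edgeR, and also 0 genes by DESeq2; unadjusted p-values under 0.05 were found for 342 genes by edgeR and 447 by DESeq2). The difference on the log2 scale, CybbKO minus WT, was 1.68 ± 1.42 for Tnfsf11 (95% interval -1.43 to 4.78), 1.17 ± 0.620 for Tnfrsf11a (interval -0.19 to 2.52), 0.72 ± 0.347 for Csf1 (interval -0.03 to 1.48), 0.16 ± 0.227 for Il34 (interval -0.33 to 0.66) and -0.03 ± 0.534 for Tnfrsf11b (interval -1.20 to 1.13). With 1 library left out, the Tnfsf11 value ran from 1.09 (without CybbKO ligated replicate 3) to 3.12 (without WT ligated replicate 3) and the Tnfrsf11a value from 0.48 (without WT naive replicate 3) to 1.49 (without WT naive replicate 1), and that of Csf1 was lowest, at 0.48, without CybbKO naive replicate 2. The calls of Tnfsf11, Tnfrsf11a and Csf1 in CybbKO and not in WT tissue are thus not shown to differ between the genotypes. These intervals also leave room for large differences in Tnfsf11 and Tnfrsf11a.

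Csf1r, the receptor of both CSF1 and IL-34 and a marker of monocytes and macrophages, was called after ligature in each genotype. WT naive replicates held 14.0, 13.4 and 16.3 CPM and WT ligated replicates 21.4, 25.5 and 31.4 CPM. CybbKO naive replicates held 13.5, 9.65 and 12.9 CPM and CybbKO ligated replicates 42.0, 29.3 and 38.9 CPM. All 6 ligated libraries exceeded all 6 naive ones. The log2 fold change was 0.84 ± 0.192 (adjusted p = 0.0405, edgeR) in WT and 1.62 ± 0.195 (adjusted p = 0.00185) in CybbKO tissue, with an interaction of 0.78 ± 0.270 (unadjusted p = 0.0142, adjusted p = 1.00).

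The other genes of these pathways were read from 5 lists, which were described by counts and medians beside the median of all tested genes given above. Averaged over genotypes, RANK signal transduction had 1 of 22 genes called higher, 0 lower and a median log2 fold change of 0.06. The called gene was Gab2, an adaptor that binds RANK and TRAF6, with a log2 fold change of 0.85 ± 0.125 (adjusted p = 0.000925, edgeR). Traf6, the ubiquitin ligase directly below RANK, stood at a log2 fold change of 0.02 with an adjusted p of 0.915. Nfatc1 and Fos, transcription factors that RANK signals induce in osteoclast precursors, were on this list and were not called. Over all genes tested 14.7% were called higher in this contrast, and the difference between the list and the other genes was not tested.

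Partners of RANKL and OPG and the proteases that shed RANKL had 6 of 9 tested genes called higher and 0 lower, with a median of 0.77. Mmp3, stromelysin 1, went from 4.89 ± 1.44 CPM in WT naive to 31.1 ± 14.8 in WT ligated and from 5.65 ± 0.738 to 74.5 ± 53.9 CPM in CybbKO tissue, a log2 fold change of 3.20 ± 0.445 (adjusted p = 0.000693, edgeR). Adam19, a sheddase that can cleave RANKL, changed by 2.48 ± 0.263 (adjusted p = 0.000232), and Mmp14, a membrane protease that releases RANKL from cells, by 1.17 ± 0.150 (adjusted p = 0.000463). Tnfsf10 encodes TRAIL, the other TNF family ligand that OPG binds, and changed by 1.00 ± 0.195 (adjusted p = 0.00405). Mmp7 was at or near 0 in every group and was not tested.

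Factors known to raise RANKL in stromal cells had 8 of 20 genes called higher and 1 lower (Il6ra), with a median of 0.40. Il6 stood at 0.101 ± 0.0880 CPM in WT naive and 0.639 ± 0.797 in WT ligated, and at 0.106 ± 0.0127 and 2.63 ± 1.95 CPM in CybbKO tissue, a log2 fold change of 3.62 ± 0.819 (adjusted p = 0.00806, edgeR). Il17a, the T cell cytokine that induces RANKL on fibroblasts and osteoblasts, changed by 3.01 ± 0.618 (adjusted p = 0.00509), and Osm, a cytokine of myeloid cells, by 2.72 ± 0.373 (adjusted p = 0.000632). Il17f was called as well (adjusted p = 0.0357), but it had 0 counts in all 3 WT naive libraries and 30 in all 3 WT ligated ones, so its fitted fold is not given. In CybbKO ligated tissue Il6 and Il17a followed the order of Tnfsf11, with 3.42, 0.401 and 4.06 CPM of Il6 and 2.69, 0.562 and 3.26 CPM of Il17a in replicates 1 to 3. Osm did not, at 4.94, 6.15 and 7.42 CPM. In WT ligated tissue replicate 3 was the high library for Il6 and Il17a, with 1.56 CPM of Il6 and 2.26 CPM of Il17a. It was the high WT ligated library for Osm as well, at 5.53 CPM against 1.39 and 2.01 CPM in replicates 1 and 2.

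The CSF1R list had 6 of 13 genes called higher and 1 lower (Grb2), with a median of 0.34, and without WT naive replicate 3 it had 7 higher and 0 lower with a median of 0.62. Besides Csf1r these included Tyrobp, the adaptor DAP12, which changed by 1.35 ± 0.205 (adjusted p = 0.00108, edgeR), and Spi1, which encodes the myeloid factor PU.1, by 1.26 ± 0.266 (adjusted p = 0.00596). Tfec, a transcription factor of the MITF family in macrophages, changed by 2.44 ± 0.604 (adjusted p = 0.0124), from 0.235 CPM in WT naive and 0.108 CPM in CybbKO naive tissue. Negative regulators of osteoclast formation had 5 of 11 tested genes called higher and 0 lower, with a median of 0.34. Socs3, a feedback inhibitor of cytokine receptors, changed by 1.21 ± 0.265 (adjusted p = 0.00737, edgeR) and Irf8, a repressor of osteoclast genes, by 0.82 ± 0.217 (adjusted p = 0.0180). Tnfaip3, the NF-kB inhibitor A20, changed by 0.55 ± 0.156 (adjusted p = 0.0249) and Ifnar1, a chain of the type I interferon receptor, by 0.34 ± 0.0963 (adjusted p = 0.0242). Il4, Il13, Ifng and Ifnb1 were too low to be tested. No gene of these 5 lists was called for genotype in naive or ligated tissue.

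**Figure D4:**
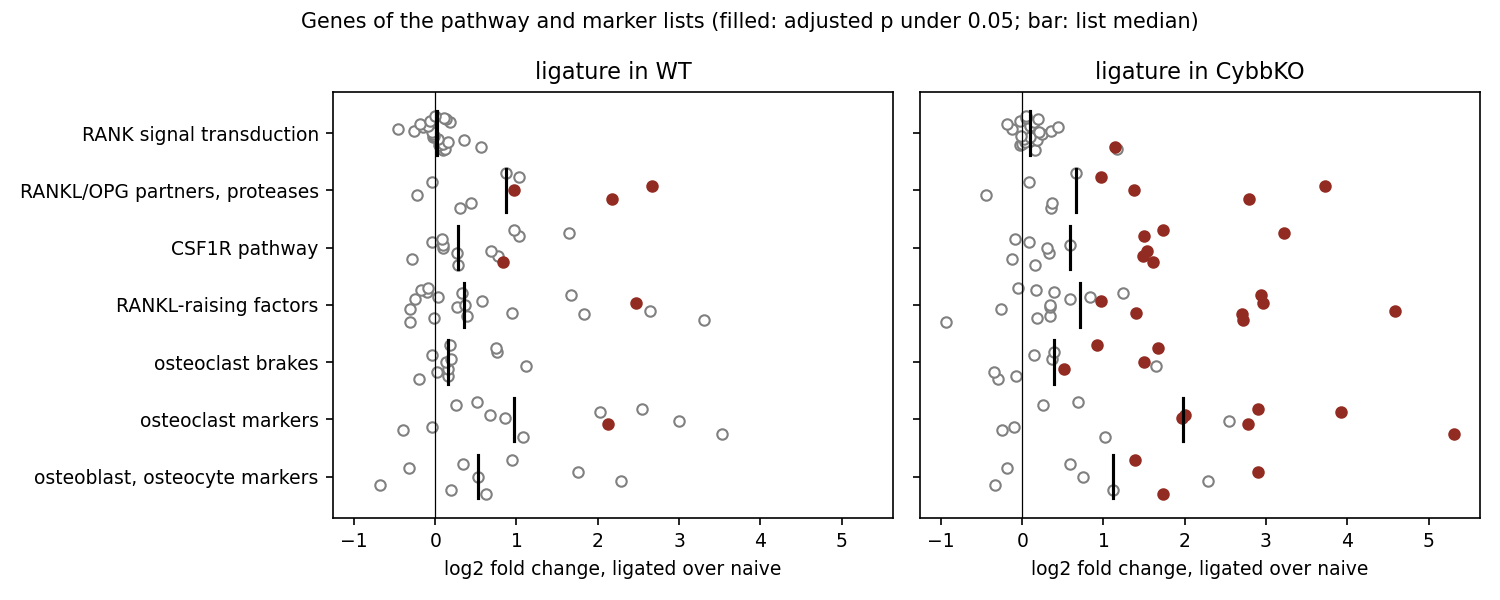
Log2 fold change of each tested gene of 7 lists for ligature in WT and in CybbKO tissue, from edgeR; filled points passed an adjusted p of 0.05, bars are list medians, and Il17f, at 0 counts in WT naive tissue, is left out of the points. RANK signal transduction has medians of 0.02 and 0.10, and the osteoclast markers have medians of 0.97 and 1.98.

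Markers of bone cells were read from a list for osteoclasts and a list for osteoblasts and osteocytes. Of the osteoclast markers 9 of 12 tested genes were called higher for ligature averaged over the genotypes and 0 lower, with a median log2 fold change of 1.38. Atp6v0d2, a subunit of the osteoclast proton pump, changed by 4.42 ± 0.719 (adjusted p = 0.00143, edgeR), Ocstamp by 2.98 ± 0.462 (adjusted p = 0.00112) and Dcstamp by 2.77 ± 0.630 (adjusted p = 0.00836), both needed for fusion of precursors, and the receptor gene Oscar by 2.73 ± 0.616 (adjusted p = 0.00813). Of the osteoblast and osteocyte markers 4 of 9 tested genes were called higher and 0 lower, among them Ibsp, bone sialoprotein, by 2.33 ± 0.560 (adjusted p = 0.0113) and Dmp1, a protein of osteocytes, by 2.28 ± 0.545 (adjusted p = 0.0108). Sost, the defining osteocyte gene, and Mepe, another osteocyte gene, were too low to be tested. Mepe stood at 0.494 ± 0.426 CPM in WT ligated tissue and at 0.0211 to 0.0289 CPM as the means of the other groups, and Sost at 0.122 ± 0.105 CPM in WT ligated tissue and at 0 in every library of the other groups. Transcripts of both lists were thus detected in tissue labelled as gingiva, in naive as well as ligated libraries. In naive libraries Atp6v0d2, Ocstamp, Dcstamp and Oscar rested on 4 to 24, 1 to 8, 2 to 14 and 2 to 10 counts. The most abundant osteoclast list genes in WT naive tissue were Clcn7, Mmp9 and Ctsk, at 49.8, 35.0 and 34.9 CPM. Car2 and Clcn7 had log2 fold changes of -0.32 and -0.08 and were not called. Whether naive tissue held bone cells was not tested.

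The 3 libraries with high Tnfsf11 were also the highest for the summed markers of several cell types, and the lowest for those of epithelium. The summed level of the 13 osteoclast markers was 648 CPM in WT ligated replicate 3 and 637 and 562 CPM in CybbKO ligated replicates 1 and 3, which are the 3 libraries with 4.75 CPM or more of Tnfsf11. In WT ligated replicates 1 and 2 and CybbKO ligated replicate 2 it was 298, 353 and 303 CPM, and in the naive libraries 193 to 273 CPM. The 11 osteoblast and osteocyte markers summed to 189, 156 and 122 CPM in the first 3 libraries, to 63.3, 98.9 and 71.1 CPM in the other 3, and to 50.9 to 90.3 CPM in naive tissue. Ibsp alone stood at 52.8, 38.9 and 24.8 CPM in the first 3 and at 5.90, 20.4 and 4.44 CPM in the others, and Atp6v0d2 at 13.9, 13.2 and 10.6 CPM against 1.72, 3.98 and 0.856 CPM. The part of these markers in the Tnfsf11 levels was not tested.

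Fibroblast and T cell markers were read in the same way, because both cell types can carry RANKL. Of the fibroblast markers 9 of 10 genes were called higher and 0 lower, led by Col3a1 at 2.49 ± 0.282 (adjusted p = 0.000277, edgeR), Postn, Col1a1 and Lum. Their summed level ran from 1388 to 2639 CPM in naive and from 3313 to 8903 CPM in ligated libraries, with CybbKO ligated replicate 2 lowest at 3313 CPM and CybbKO ligated replicate 1 highest. Of the T cell markers 6 of 8 were called higher and 0 lower, led by Foxp3 at 1.85 ± 0.347 (adjusted p = 0.00309). The summed T cell level was 15.8 to 22.9 CPM in naive and 20.2 to 32.3 CPM in ligated libraries, and here CybbKO ligated replicate 2 was the highest. Cd5, which was not called, had group means of 10.6 to 14.5 CPM and made up much of that sum. Cd3g, a chain of the T cell receptor complex, stood at 6.12, 5.98 and 7.17 CPM in WT ligated replicate 3 and CybbKO ligated replicates 1 and 3, against 4.06, 3.09 and 5.46 CPM in WT ligated replicates 1 and 2 and CybbKO ligated replicate 2. Cd3g was thus highest in the 3 libraries with high Tnfsf11, as was Cd3d, while Foxp3 was highest in WT ligated replicate 1 and Cd4 was lower in WT ligated replicate 3, at 1.35 CPM, than in WT ligated replicates 1 and 2, at 1.99 and 2.07 CPM.

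Some of the other lists were ordered like this as well, while the sums of Langerhans cell, skeletal muscle and salivary gland markers were not. Nor were the sums of the CSF1R and RANK signal transduction lists. The CSF1R sum was highest in CybbKO ligated replicate 2, at 1008 CPM. The RANK sum was lower in WT ligated replicate 3, at 1132 CPM, than in WT ligated replicates 1 and 2, at 1144 CPM each. In WT ligated replicate 3 and CybbKO ligated replicates 1 and 3, endothelial markers summed to 369, 376 and 375 CPM, against 238 to 274 CPM in the other 3 ligated libraries. Macrophage markers summed to 298, 353 and 378 CPM against 230 to 265 CPM, and neutrophil markers to 3941, 4506 and 11725 CPM against 1597 to 3135 CPM. S100a8 alone held 1509, 1784 and 4551 CPM of the neutrophil sums in the 3 libraries with high Tnfsf11. Camp, Ngp and Ly6g were instead highest in CybbKO ligated replicate 2, at 1.20, 5.64 and 1.77 CPM. The macrophage marker Ly6c2 was also highest there, at 3.56 CPM. Factors that raise RANKL summed to 814, 984 and 1039 CPM against 611 to 729 CPM. Epithelial markers were lowest in the same 3 libraries, at 63404, 68249 and 60524 CPM against 80757 to 107896 CPM. High Tnfsf11 thus went with a difference in the sums of several lists, though not in every gene of them. It was not particular to bone cells or fibroblasts, and the part of each list in the Tnfsf11 levels was not tested.

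**Figure D5:**
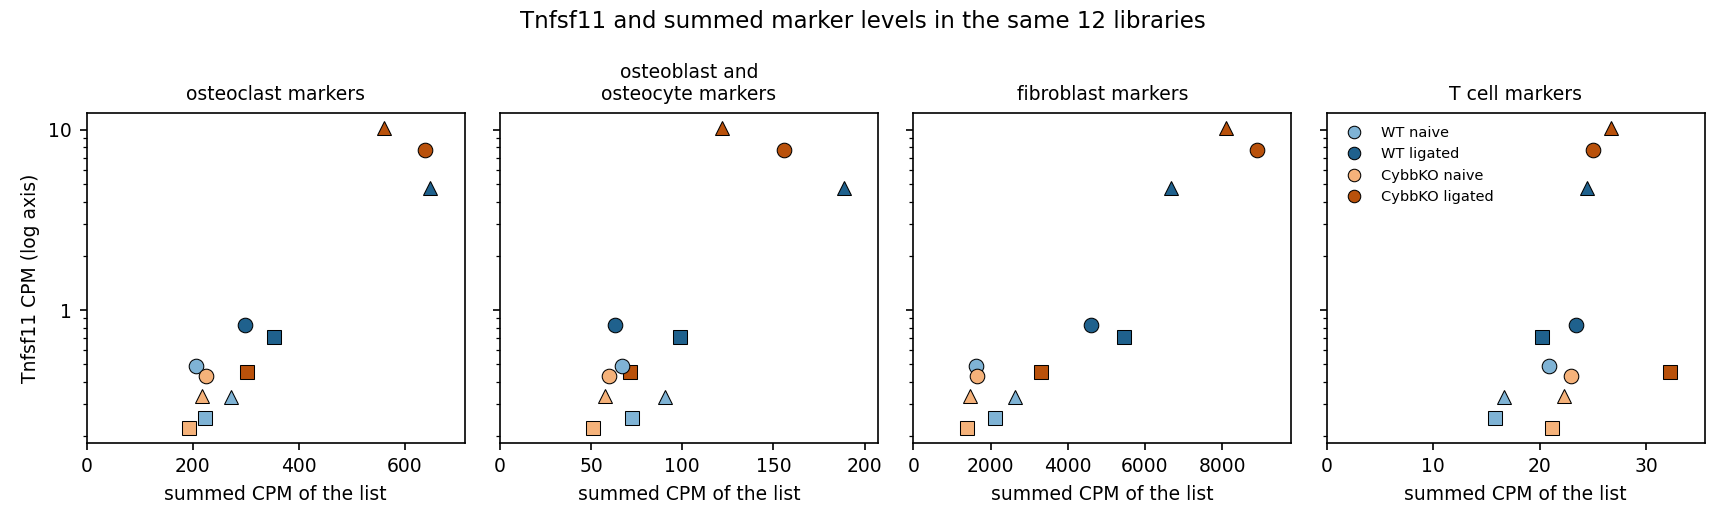
Tnfsf11 CPM on a log axis against the summed CPM of 4 marker lists on linear axes, 1 point for each of the 12 libraries; colours give the group and symbols the replicate number, as circle, square and triangle for 1, 2 and 3. The 3 libraries with the most Tnfsf11 lie at 562 to 648 CPM of osteoclast markers, all others at or below 353 CPM, and CybbKO ligated replicate 2 (square) has the highest T cell sum, 32.3 CPM.

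Markers of other cells that the tissue could hold were counted in the same contrast, where 24.4% of all genes were called. Monocyte and macrophage markers had 10 of 11 genes called higher and 0 lower, led by Ly6c2, Fcgr1, Cd14 and Adgre1. All 10 neutrophil markers were called higher, led by Camp, Ngp, Ly6g and S100a8, and all 8 endothelial markers, led by Cdh5, Pecam1, Kdr and Tek. Camp and Ly6g rested on few counts, with 0 to 5 and 0 to 3 in naive libraries. WT ligated replicate 1 held only 0, 2 and 2 counts of Camp, Ngp and Ly6g. Epithelial markers had 0 of 11 called higher and 4 lower (Krt10, Krt15, Krt1 and Krt76). Skeletal muscle had 1 of 10 called higher (Myh2), and mucous and salivary gland markers 0 of 7 higher and 1 lower (Amy1). Keratinocytes are a main source of IL-34, and the part of the epithelial markers in the Il34 levels was not tested. Without CybbKO ligated replicate 2, or without WT naive replicate 3, the total number of genes called in each of the lists described here stayed within 1.5 times of the number given, except that skeletal muscle had 2 and mucous and salivary gland markers 1 called higher and 1 lower without WT naive replicate 3.

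Langerhans cells, which depend on IL-34 in epithelium, had 3 of 7 tested markers called higher and 1 lower. Cd207, which encodes langerin and defines these cells, was the lower one, at 8.44 ± 3.95 CPM in WT naive and 3.06 ± 1.20 in WT ligated tissue, and at 8.06 ± 1.72 and 2.00 ± 0.374 CPM in CybbKO tissue. Its log2 fold change averaged over the genotypes was -1.74 ± 0.274 (adjusted p = 0.00126, edgeR). Itgax, H2-Aa and Cd1d1, which other dendritic cells and macrophages also carry, were the ones called higher. Over the same libraries Il34 was not called, at a log2 fold change of -0.24.

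The genes most like each member over the 12 libraries were ranked by Pearson's r of log2 CPM among all tested genes. For Tnfsf11 they were Glipr1 (r = 0.988), Serpine2 (0.975) and Pros1 (0.970), and after the mean of each group was removed the values were 0.981, 0.955 and 0.959. For Tnfrsf11b they were Csn1s1 (0.954), Pfkfb3 (0.948) and Cxcl2 (0.947), for Tnfrsf11a Cd63 (0.974), Spata13 (0.969) and Plscr1 (0.966), and for Csf1 Plekho2 (0.972), the complement gene C1qa (0.966) and Il4ra (0.960). Il34 had weaker matches, Tmem125 (0.886), Snd1 (0.878) and Erfe (0.864). Between members, r was 0.749 for Tnfsf11 and Tnfrsf11b, and 0.409 after group means were removed. Csf1r reached 0.903 with Csf1 and -0.311 with Il34. All points share the split into ligated and naive tissue and the same libraries, so these are descriptions over 12 libraries and not evidence of shared control.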

How the data were processed

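Stranded mRNA libraries were made from gingival tissue of 12 mice. The authors deposited raw counts per gene, without normalization. Per the labels and methods, reads were aligned to GRCm38 with STAR; the methods name featureCounts by strand and the submitters' processing notes HTSeq 0.10.0 and FastQC 0.10.1, so the counting tool is not settled. Groups came from the labels, with 3 libraries each. Of 21965 genes, 21939 were matched to GENCODE M21 (GRCm38).

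Counts were fitted with edgeR 4.0.16 (R 4.3.3) by quasi-likelihood in a joint model of the 12 libraries, with TMM scaling and filterByExpr, which left 15046 genes. Benjamini-Hochberg adjustment ran over all 15046, and genes under 0.05 are named as called. The biological coefficient of variation was 0.240, so spread between mice limits most genes more than counting does; Tnfsf11, with 8 to 16 counts in naive libraries, is limited by both. CPM values use TMM-scaled totals, and CPM per kilobase divides by the length of all exons. Ratios carry 95% Clopper-Pearson intervals, which cover counting error only. Ratios and single genes were compared by exact two-sided permutation tests in Python 3.11.15 (scipy 1.17.1), stratified by genotype for the averaged contrast. The procedure was tested on simulated data. Replicates were checked and no 2 libraries of the same group agreed within sampling noise (lowest chi-square per gene 37.4). Alternatives were DESeq2 1.42.0, its size factors, library-size scaling, other filters, a robust fit, fits of the compared libraries alone, a replicate block, and each library left out. The counts of each list without CybbKO ligated replicate 2 or WT naive replicate 3 were added after seeing the data.

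The 5 members and the 17 gene lists were chosen with earlier results of these data known, and 1 list is not reported here. Genes were named by a fixed rule: the members, Csf1r and Cybb always, from each list up to 4 called genes with the largest fold for ligature averaged over the genotypes, and the 3 genes most correlated with each member. Traf6, Nfatc1, Fos, Grb2, Il6ra, Cd5, Car2, Clcn7, Mmp9, Ctsk, Mmp7 and the genes too low to test were named after their values were seen.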

Additional observations from a re-analysis of the deposited data

How the results depend on the processing

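Each call of a member kept its direction under all alternatives tried. Numbers of called genes moved most. For ligature in WT tissue 481 genes were called, 1374 with DESeq2 and 271 with the replicate block, and 27 (without WT naive replicate 2) to 900 (without CybbKO ligated replicate 2) with 1 library left out. For ligature in CybbKO tissue 1954 were called, and 837 to 2949 with 1 left out; averaged over genotypes 3668, and 2531 to 4694. For genotype in naive tissue 1 gene was called, and 2 with DESeq2. For genotype in ligated tissue 1 was called, 18 with DESeq2, 0 with only the libraries compared and 0 to 2 with 1 left out. For genotype by ligature it was 0, and 0 to 1. The causes were not tested.

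DESeq2 called Tnfsf11 (2.54) and Tnfrsf11b (1.26) in WT and Tnfrsf11b (1.22) in CybbKO tissue, where library-size scaling (1.32) and only the libraries compared (1.25) also called it. The replicate numbers did not pair the libraries: correlations of same-numbered libraries ran from -0.228 to 0.277, and the best partner shared the number in 6 of 36 cases. With the replicate block the interaction of Tnfrsf11b turned from -0.03 to 0.070, and no call of a member changed.

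With 1 library left out, log2 fold changes for ligature ran from 0.68 to 1.70 for Tnfrsf11b in WT, and in CybbKO tissue from 3.63 to 4.76 for Tnfsf11, 1.12 to 1.33 for Tnfrsf11b and 1.57 to 1.92 for Tnfrsf11a. Averaged over genotypes they ran from 0.96 to 1.46 for Tnfrsf11a and from -0.32 to -0.19 for Il34, and the ratio of Tnfsf11 to Tnfrsf11b from 1.22 to 2.30. For genotype in naive tissue they ran from -0.36 to 0.19 for Tnfsf11, -0.96 to 0.053 for Tnfrsf11a and -0.34 to 0.066 for Csf1, and in ligated tissue from -0.21 to 0.79 for Tnfrsf11b. The interaction ran from -0.45 to 0.55 for Tnfrsf11b and from -0.0028 to 0.26 for Il34. Tnfsf11 has no value under a minimum of 10 counts in every library, since its naive counts fall below it.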
